A study of Mus musculus with 8 samples.

Results

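Hepatic stellate cells isolated after 4 weeks of carbon tetrachloride (CCl4) were compared with those isolated after 2 weeks, over all genes that the array names. Each time was measured on 2 arrays, which are 4 of the 8 arrays of a study of YAP, the effector of the Hippo pathway, in stellate cell activation. All mice were BALB/c, an inbred strain. The 2-week and 4-week groups were primary stellate cells of CCl4-treated fibrotic mice, taken without seeding. Levels in the 2 other groups, also of 2 arrays each, are given beside them where useful. Those are quiescent stellate cells of healthy mice at 0 h, without seeding, and the same kind of cell after 10 days of culture on plastic. The dose and schedule of CCl4 and the age and sex of the mice were not given in the sources used here. Of the 41345 probe sets, 23521 carried 1 gene symbol, and the brightest of each gene over all 8 arrays gave the 22180 genes compared.

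Stellate cells are the pericytes of the liver sinusoid. In the healthy liver they store vitamin A as retinyl esters, and after injury they become contractile myofibroblasts that lay down collagen. CCl4 is turned by hepatocytes into a radical that kills them, and repeated doses produce fibrosis. Kupffer cells, the resident macrophages of the sinusoid, and monocytes drawn in from the blood clear the debris, and both release cytokines that act on stellate cells.

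The cells carried the markers of their label. Lrat, which esterifies retinol for storage, stood at 10.95 and 11.11 log2 units on the 2-week arrays and at 11.04 and 10.97 on the 4-week arrays. Acta2, the smooth muscle actin of myofibroblasts, stood at 11.95 and 11.92 at 2 weeks and at 11.70 and 12.18 at 4 weeks, against 6.78 and 7.24 in quiescent cells. Both genes overlapped between the CCl4 times. Markers of other liver cells were also measured in these preparations. The albumin gene Alb stood at 10.68 and 11.12 at 2 weeks and at 9.57 and 9.23 at 4 weeks, and the macrophage gene Adgre1 at 6.30 and 7.07 and then at 4.76 and 5.04. In such bulk samples, fewer cells of a type and less RNA per cell cannot be told apart.

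Few genes passed the test between the CCl4 times, and more of them were lower at 4 weeks than higher. Of the 13 that fell, 5 belong to marker lists of Kupffer cells or of monocytes and injury macrophages. Those lists hold 22 and 25 of the 22180 genes compared, and were chosen with earlier results of these data known. With limma and an adjusted p under 0.05, 19 of the 22180 genes were called (0.0857%), 6 higher at 4 weeks (0.0271%) and 13 lower (0.0586%). At an unadjusted p under 0.05 there were 855 higher and 955 lower genes. By size alone, 40 genes (0.18%) were at least 2-fold higher at 4 weeks with both arrays above both 2-week arrays, and 158 (0.712%) were at least 2-fold lower with both arrays below. This excess of falls is that of genes with 1 symbol. Of the 17824 probe sets with no or several symbols, 298 were higher and 156 lower by the same rule. Without regard to size, the arrays of the times lay apart for 4165 genes higher at 4 weeks (18.8%) and 4477 genes lower (20.2%), and they overlapped for 13538. With 2 arrays a group, arrays often lie apart by chance, so these are not counts of genes that differ. Counts of list members with arrays apart, given below, are to be read beside these shares of 18.8% higher and 20.2% lower. Among the 1390 olfactory and vomeronasal receptor genes, used below as a guide to background, the shares were 12.8% higher and 13.7% lower. The median difference over all genes was -0.01 on the log2 scale. Without 2-week replicate 1 the genes at least 2-fold apart were 69 higher and 260 lower. The arrays of 1 time differed by over 2-fold from each other for 117 genes at 2 weeks and 56 genes at 4 weeks. No label states that replicate arrays represent different animals. The p-values thus reflect the variation among these preparations alone, and that variation may be technical.

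The 19 calls rested on few arrays. Each of them was kept without either quiescent array, when the fit called 15 genes higher and 70 lower. None was kept without either culture array or either 2-week array, where the fit called 0 genes in both directions. Without 4-week replicate 1 it called 0 higher and 2 lower, Vsig4 and Atp6v0d2, and without 4-week replicate 2 it called 0. The fits that called 0 had 674 to 807 higher and 729 to 1014 lower genes at an unadjusted p under 0.05. Over these 8 fits with 1 array left out, limma's adjusted p of the 19 genes ran from 0.0155 to 0.381, and the differences kept their sign. The arrays of the other groups enter only through the shared estimate of the spread.

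**Figure D1:**
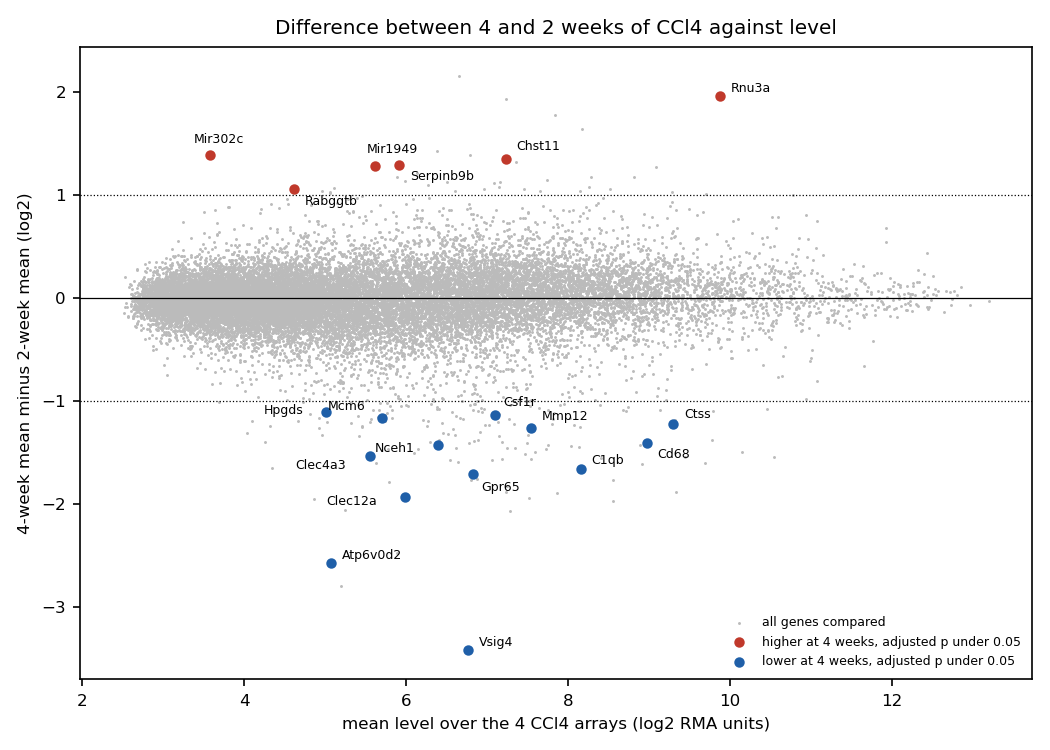
Each point is 1 of the 22180 genes, with the mean level over the 4 CCl4 arrays on the x axis (log2 RMA units) and the 4-week minus the 2-week mean on the y axis (log2). Red points are the 6 genes called higher at 4 weeks and blue points the 13 called lower, and the dotted lines mark a 2-fold difference, beyond which more points lie below than above.

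Vsig4 had the largest difference of the 13 genes called lower. It encodes the complement receptor CRIg, a surface protein of resident macrophages that Kupffer cells use to catch particles coated with complement. Its level was 8.33 and 8.62 log2 units on the 2-week arrays and 5.52 and 4.58 on the 4-week arrays, against 9.08 and 9.24 in quiescent cells. Both 4-week arrays lay far below both 2-week arrays, and the gene fell by 3.42 ± 0.33 (SE, limma, n = 2 arrays a group, adjusted p = 0.0321), or 10.7-fold. The complement gene C1qb, made in the liver mainly by macrophages, stood at 9.01 and 8.95 and then at 7.40 and 7.26, a fall of 3.15-fold (log2 -1.65 ± 0.18, adjusted p = 0.0321). The other C1q chains were lower without passing the threshold, C1qa at -1.57 ± 0.27 and C1qc at -1.38 ± 0.29 (adjusted p = 0.109 and 0.158). Csf1r, the receptor for the growth factor on which macrophages depend, went from 7.63 and 7.69 to 6.53 and 6.53, a fall of 1.13 ± 0.13 on the log2 scale (adjusted p = 0.0321). The ligand genes of that receptor did not pass, with Csf1 at 0.39 ± 0.15 and Il34 at 0.27 ± 0.17 (adjusted p = 0.555 and 0.782).

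Atp6v0d2 and Ctss were the called falls of the lysosome and phagocytosis list, and 3 other called falls are described with them. Cd68, a lysosomal membrane glycoprotein of macrophages, stood at 9.51 and 9.83 at 2 weeks and at 8.19 and 8.33 at 4 weeks (-1.41 ± 0.16, adjusted p = 0.0332). Ctss, which encodes cathepsin S, a protease of antigen-presenting cells, stood at 9.85 and 9.97 and then at 8.61 and 8.76 (-1.22 ± 0.14, adjusted p = 0.0321). Atp6v0d2, a subunit of the vacuolar proton pump found in macrophages and osteoclasts, went from 6.05 and 6.66 to 4.31 and 3.26 (-2.57 ± 0.32, adjusted p = 0.0344). The 1390 genes of olfactory and vomeronasal receptors served as a guide to background, and their median on the CCl4 arrays was 3.23 and their 95th percentile 4.78. Both 4-week values of Atp6v0d2 are within that range, so the size of its difference may be understated. Its quiescent and culture arrays lay between 3.17 and 3.52, below every CCl4 array but 4-week replicate 2. Mmp12, the elastase of macrophages, was 8.11 and 8.23 at 2 weeks and 6.98 and 6.84 at 4 weeks (-1.26 ± 0.13, adjusted p = 0.0321), with 4.87 and 4.79 in quiescent cells. Nceh1, which splits stored cholesteryl esters, stood at 6.93 and 7.28 and then at 5.61 and 5.74 (-1.43 ± 0.17, adjusted p = 0.0344), while its dimmer probe set differed by -0.60. In none of these 5 genes did the arrays of the times overlap.

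The remaining called falls were 2 lectin-type receptors, a proton-sensing receptor, a prostaglandin synthase and a replication factor. Clec12a, an inhibitory receptor of myeloid cells, went from 6.92 and 6.98 to 4.74 and 5.30 (-1.93 ± 0.21), and Clec4a3, a related receptor, from 6.37 and 6.27 to 4.59 and 4.99 (-1.53 ± 0.17). Gpr65, which senses acid outside the cell, went from 7.86 and 7.49 to 5.78 and 6.15 (-1.71 ± 0.19). Adjusted p was 0.0321 for each of these 3 receptors. Hpgds, the haematopoietic prostaglandin D synthase, went from 5.57 and 5.56 to 4.45 and 4.47 (-1.11 ± 0.14, adjusted p = 0.0344), with both 4-week values within the background range. Mcm6, a subunit of the helicase that opens DNA for replication, went from 6.30 and 6.26 to 5.21 and 5.03 (-1.16 ± 0.14, adjusted p = 0.0344), and stood higher, at 6.88 and 6.93, in culture. All 4-week values of these 5 genes lay below all 2-week values.

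**Figure D2:**
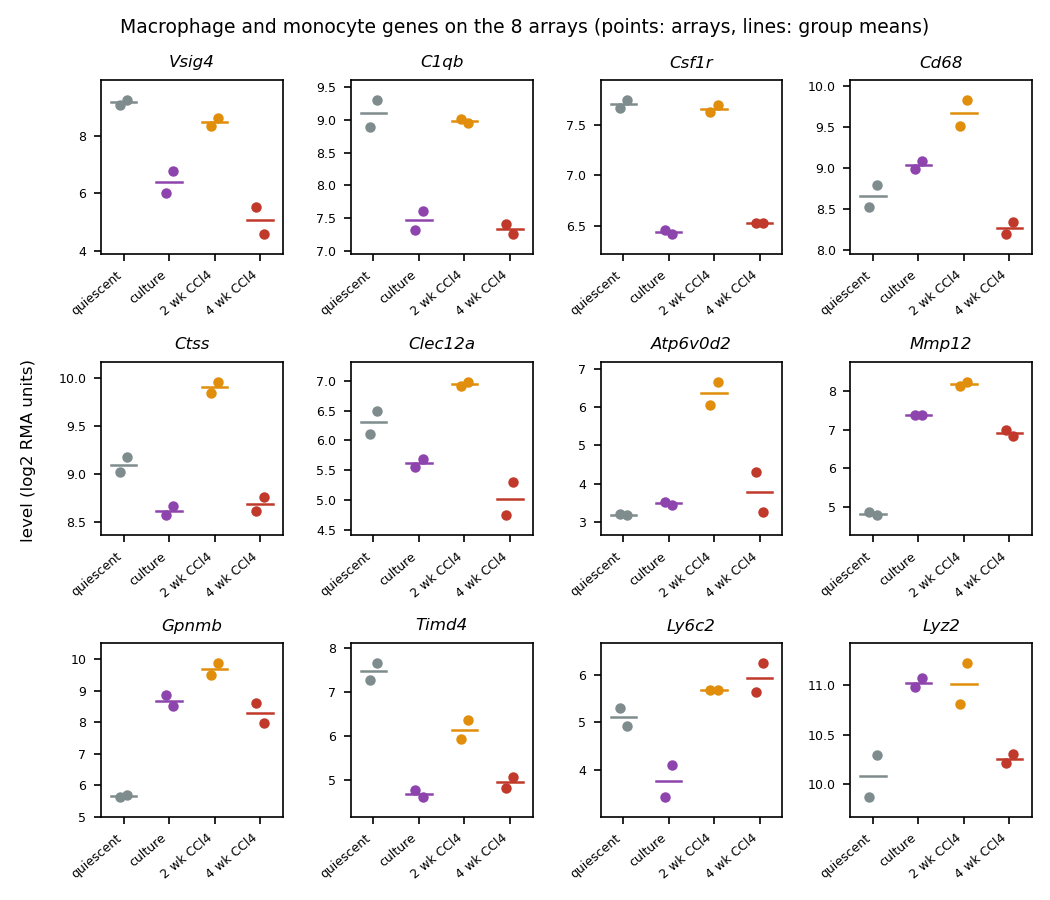
Levels of 12 macrophage and monocyte genes (y axes, log2 RMA units, a separate scale in each panel) on the 8 arrays, with points for arrays and lines for group means. The 4-week arrays lie below the 2-week arrays in every panel but that of Ly6c2, where they overlap.

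Promoters of 4 of these genes are printed to show a short motif that most of them share.
Vsig4 (chrX:96293439-96293688, minus strand): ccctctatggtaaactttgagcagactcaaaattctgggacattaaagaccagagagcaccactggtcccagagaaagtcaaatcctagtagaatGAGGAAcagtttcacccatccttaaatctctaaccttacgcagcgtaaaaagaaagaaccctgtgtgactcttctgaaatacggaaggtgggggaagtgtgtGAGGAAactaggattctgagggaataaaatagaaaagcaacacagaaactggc
C1qb (chr4:136886201-136886450, minus strand): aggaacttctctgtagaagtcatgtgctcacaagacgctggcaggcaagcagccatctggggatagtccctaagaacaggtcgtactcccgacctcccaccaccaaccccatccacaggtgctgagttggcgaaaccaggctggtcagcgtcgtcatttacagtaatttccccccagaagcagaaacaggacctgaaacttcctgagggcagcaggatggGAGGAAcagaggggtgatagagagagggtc
Cd68 (chr11:69666171-69666420, minus strand): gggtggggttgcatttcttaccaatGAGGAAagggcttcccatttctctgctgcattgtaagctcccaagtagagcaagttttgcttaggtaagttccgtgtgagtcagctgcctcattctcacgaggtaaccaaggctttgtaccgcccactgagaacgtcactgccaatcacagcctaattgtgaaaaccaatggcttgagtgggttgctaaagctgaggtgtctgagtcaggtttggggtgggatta
Ctss (chr3:95526536-95526785, plus strand): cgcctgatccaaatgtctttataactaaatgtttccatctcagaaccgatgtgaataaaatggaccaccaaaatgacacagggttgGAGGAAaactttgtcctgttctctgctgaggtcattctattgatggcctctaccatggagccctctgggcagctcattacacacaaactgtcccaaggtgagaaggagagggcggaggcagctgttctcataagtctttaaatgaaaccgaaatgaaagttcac
Each is the 250 bases before a transcription start in RefSeq on GRCm38.p6, written 5′ to 3′ on the strand of the gene, with capitals for GAGGAA, which was searched on both strands. GAGGAA is the core favoured by PU.1, an ETS factor of myeloid cells. It was chosen with the called genes known. RefSeq held a promoter for 11 of the 13 genes called lower, not for Csf1r and Atp6v0d2, and 10 of the 11 (90.9%) had GAGGAA in at least 1 window, against 25.4% of the 16990 genes compared that had a promoter. Of single windows, 10 of 13 had it (76.9%), against 22.8% of all 20611. Among the genes called higher, 3 had a promoter and 1 of these had GAGGAA (33.3%). The AP-1 motif TGANTCA, which cannot overlap GAGGAA, was in a window of 3 of the 11 genes (27.3%, against 7.44%), with 2 matches in the Cd68 window above. The E-box CACGTG, which can share 1 base with GAGGAA, was in 1 of the 11 (9.09%, against 7.83%). No test was made of these shares. A match is a description of the letters and not a bound site, and no match says only that the letters are not in this window. Spi1, the gene of PU.1, stood at 6.77 and 6.87 at 2 weeks and at 6.01 and 5.67 at 4 weeks (-0.98 ± 0.20, limma's adjusted p = 0.144), lower on both 4-week arrays without passing the threshold. The part of PU.1 in the called falls was not tested.

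Marker lists of Kupffer cells and of monocytes and injury macrophages held 5 of the 13 called falls. The lists were chosen with earlier results of these data known. Of 22 measured Kupffer cell genes, 3 fell (Vsig4, C1qb and Csf1r), and 11 were at least 2-fold lower with arrays apart. In 17 the 4-week arrays lay below the 2-week arrays (77.3%) against 2 above (9.09%). The median difference of the list was -1.01, beside -0.01 over all genes, and lay between -0.94 and -1.15 with any 1 of the 4 CCl4 arrays left out. Cd5l, a macrophage gene that regulates lipid handling, stood at -2.47 ± 0.52 (adjusted p = 0.169). Clec4f, a lectin found on Kupffer cells, stood at -1.76 ± 0.30 (0.103), and Timd4, a receptor for dying cells, at -1.20 ± 0.20 (0.103). The members with arrays higher at 4 weeks were Fcna (0.36 ± 0.20) and C6 (0.34 ± 0.36). Of 25 genes of monocytes and injury macrophages, 2 fell (Cd68 and Ctss) and 9 were at least 2-fold lower. Arrays were lower at 4 weeks in 17 (68%) against 0 higher, with a median of -0.63. Gpnmb, a glycoprotein of lipid-laden macrophages, stood at 9.50 and 9.89 and then at 8.63 and 7.97 (-1.39 ± 0.24, adjusted p = 0.103), with 5.63 and 5.68 in quiescent cells. The receptor gene Trem2 stood at -0.86 ± 0.25 (0.351) and the lysozyme gene Lyz2 at -0.75 ± 0.19 (0.259). Ly6c2, the surface marker of freshly recruited monocytes, overlapped between the times, at 5.67 and 5.68 and then 5.63 and 6.24 (0.26 ± 0.27, adjusted p = 0.887).

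The level of the Kupffer list, as the median over its genes, was 7.55 and 7.76 log2 units on the 2-week arrays and 6.08 and 6.16 on the 4-week arrays. Quiescent cells stood at 7.64 and 8.46 and cultured cells at 5.37 and 5.41, so the 2-week arrays lay near the quiescent level and the 4-week arrays between it and culture. The monocyte and injury macrophage list ran differently, at 6.17 and 6.51 in quiescent cells, 7.33 and 7.43 at 2 weeks and 6.79 and 6.93 at 4 weeks. Its 4-week arrays were below the 2-week arrays and above the quiescent ones. The list of antigen-presenting cells and MHC class II genes had a median of 0.01, which was -0.14 without 2-week replicate 1, and that of lymphocytes -0.04.

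**Figure D3:**
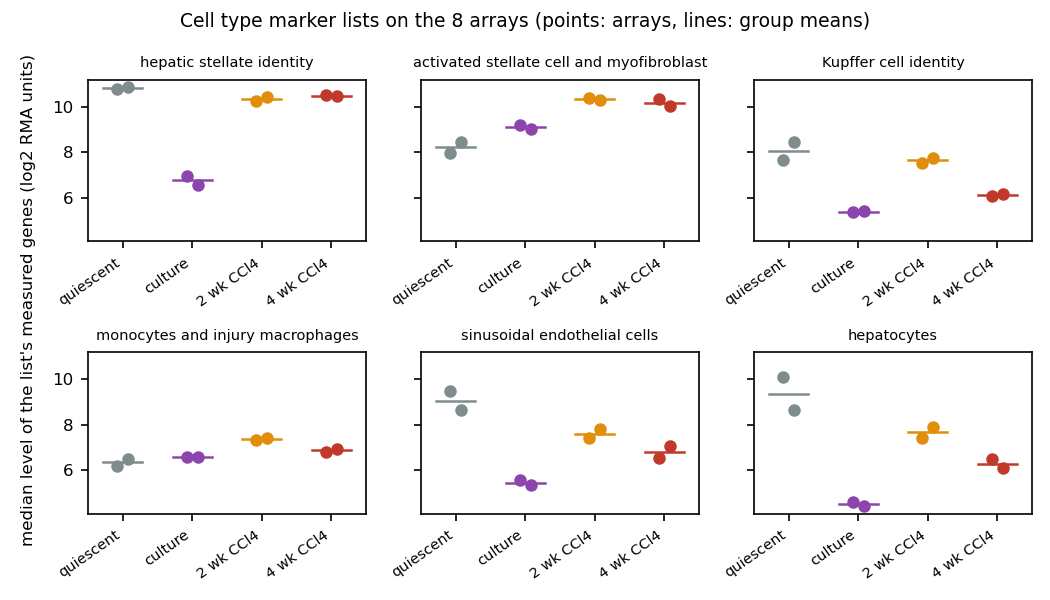
Median level of the measured genes of 6 cell type lists (y axis, log2 RMA units) on the 8 arrays, with points for arrays and lines for group means. The Kupffer list is at 7.55 and 7.76 at 2 weeks and at 6.08 and 6.16 at 4 weeks, and the hepatic stellate list stays between 10.28 and 10.52 on the 4 CCl4 arrays.

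Genes of hepatocytes were lower at 4 weeks by as much, although none passed limma's adjusted threshold (15 lower and 0 higher at an unadjusted p under 0.05). Of 25 measured, 14 were at least 2-fold lower with arrays apart, and 19 had arrays lower at 4 weeks (76%) against 1 higher (4%). The median was -1.18. That median was -0.71 without 2-week replicate 2. Alb came nearest to a call (-1.50 ± 0.20, adjusted p = 0.0522). The fibrinogen gene Fgg stood at -2.07 ± 0.48 (adjusted p = 0.201), the fatty acid binding protein gene Fabp1 at -1.60 ± 0.28 (0.109) and the transthyretin gene Ttr at -1.54 ± 0.33 (0.175). Cyp2e1, the cytochrome that activates CCl4, stood at -1.37 ± 0.58 (0.593). The urea cycle gene Ass1 was the member with arrays higher at 4 weeks (0.58 ± 0.26, adjusted p = 0.623). The level of the list was 7.43 and 7.91 at 2 weeks and 6.48 and 6.08 at 4 weeks, against 10.08 and 8.63 in quiescent cells and 4.57 and 4.41 in culture. Quiescent replicate 1 thus carried the most of it and the cultured cells the least.

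Sinusoidal endothelial and neutrophil genes were also lower, by less. Neither list had a call, and at an unadjusted p under 0.05 limma gave 7 endothelial and 5 neutrophil genes, all lower. Of 26 endothelial genes, 17 had arrays lower at 4 weeks (65.4%) and 0 higher, with a median of -0.45, which was -0.30 without 2-week replicate 2. The scavenger receptor Stab2 stood at -0.81 ± 0.30 (adjusted p = 0.521), Mrc1, which macrophages share, at -1.45 ± 0.29 (0.139) and Oit3 at -1.09 ± 0.30 (0.319). Plvap, a gene of fenestral diaphragms, stood at 0.10 ± 0.19. Of 20 neutrophil genes, 10 had arrays lower (50%) and 2 higher (10%), with a median of -0.32, which was -0.16 without 2-week replicate 2. The calprotectin genes S100a8 and S100a9 differed by -1.25 ± 0.59 and -0.99 ± 0.57 (adjusted p = 0.668 and 0.753). Together the 5 lists of Kupffer cells, monocytes, endothelium, neutrophils and hepatocytes held 116 of the 22180 genes compared. They contained 39 of the 158 genes that were at least 2-fold lower at 4 weeks and 0 of the 40 that were at least 2-fold higher, and 5 of the 13 called falls. All 5 lists had medians below 0, so this split follows in part from which lists were joined. The list of portal fibroblasts and mesothelium, left out here, held 1 gene at least 2-fold higher, Pdpn (1.04). Vascular smooth muscle genes, also left out, had arrays higher in 7 of 17 and lower in 3. The part of the cells of the 5 lists in the other differences was not tested.

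Cytokine and chemokine genes were mostly lower at 4 weeks. None of 26 measured genes passed limma's adjusted threshold (3 higher and 12 lower at an unadjusted p under 0.05). Of these 26, 6 were at least 2-fold lower and 1 higher, and 19 had arrays lower (73.1%) against 5 higher (19.2%). Their median of -0.59 was -0.31 without 4-week replicate 1. Tnf stood at -1.57 ± 0.29 (adjusted p = 0.115), the macrophage inflammatory chemokines Ccl3 and Ccl4 at -1.56 ± 0.32 and -1.45 ± 0.26 (0.148 and 0.115), and Il1a at -1.47 ± 0.37 (0.259). Chemokines that draw neutrophils and monocytes were lower by less, with Cxcl1 at -1.08 ± 0.23 (0.173) and Ccl2 at -0.61 ± 0.17 (0.317). Higher at 4 weeks were the eotaxin gene Ccl11 (0.77 ± 0.19, adjusted p = 0.253) and Cxcl14 (2.01-fold, adjusted p = 0.612). Macrophage markers moved with these differences, as given above, and their part in them was not tested. Interferon response genes did not share the direction, with a median of 0.01 over 20 genes (from -0.05 to 0.12 with 1 CCl4 array left out), Irf1 at -0.92 ± 0.21 (adjusted p = 0.203) and Bst2 at 0.75 ± 0.19 (0.266).

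Stellate cell identity genes were not lower as a set. None of 24 measured passed limma's adjusted threshold (1 higher and 0 lower at an unadjusted p under 0.05) or reached 2-fold with arrays apart, and 13 overlapped between the times. Of the 24, 8 had arrays higher at 4 weeks (33.3%) and 3 lower (12.5%), against 18.8% and 20.2% of all genes. Single differences ran from -0.41 to 0.86. The median of the differences was -0.02, of the opposite sign to the change of the list's median level, and the level of the list was 10.28 and 10.44 at 2 weeks and 10.52 and 10.47 at 4 weeks. Rgs5, a pericyte gene, stood at 0.06 ± 0.14, the cytoglobin gene Cygb at 0.16 ± 0.16, Reln at -0.02 ± 0.26 and Des, which encodes desmin, at 0.35 ± 0.13 (adjusted p = 0.538). Pdgfrb, the receptor that drives stellate cell growth, stood at 0.37 ± 0.20 (0.732). A gene that did not pass the test is not thereby shown to be alike at both times.

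Genes of the myofibroblast and its matrix did not pass the test either, and those that differed most were lower at 4 weeks. At an unadjusted p under 0.05 limma gave 0 higher and 3 lower genes of the activated list, and 1 and 1 of the collagens. Of 22 genes of activated stellate cells, 10 had arrays lower (45.5%) and 2 higher (9.09%), against 20.2% and 18.8% of all genes. Their median was -0.12, and -0.23 without 2-week replicate 1. Col1a1 stood at 10.64 and 11.19 at 2 weeks and at 10.54 and 10.34 at 4 weeks, which places both later arrays below both earlier ones by little (-0.47 ± 0.27, adjusted p = 0.743). Col1a2 differed by -0.08 ± 0.21 (0.966) and by -0.49 on its dimmer probe set. Col3a1 stood at -0.58 ± 0.44 (0.827), the crosslinking enzyme gene Lox at -0.39 ± 0.16 (0.575) and the secreted glycoprotein gene Cthrc1 at -0.99 ± 0.18 (0.119). Timp1, the inhibitor of collagenases, stood at 0.22 ± 0.26. Of 19 collagen genes, 9 had arrays lower (47.4%) and 2 higher (10.5%). The members higher at 4 weeks were Col15a1 (0.59 ± 0.19, adjusted p = 0.427) and Col16a1 (0.29 ± 0.18, 0.774). The collagen list's median of -0.13 was -0.26 without 2-week replicate 1, and 20 collagen processing genes had a median of -0.11, which was -0.18 without that array.

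The matrix genes furthest below 0 were Ogn and Fmod, both small proteoglycans, followed by Fbln5, Mfap2 and Eln of elastic fibres. Fmod, which encodes the collagen-binding proteoglycan fibromodulin, stood at 9.14 and 10.06 at 2 weeks and at 8.27 and 8.08 at 4 weeks (-1.43 ± 0.37, adjusted p = 0.264). Its 2-week arrays were above the quiescent arrays, at 6.74 and 7.03, and above the 4-week arrays. Ogn, another proteoglycan of that family, stood at 8.73 and 8.78 and then at 7.51 and 7.13 (-1.44 ± 0.34, adjusted p = 0.223), below its quiescent values of 8.03 and 9.16. The fibulin gene Fbln5 stood at -0.95 ± 0.30 (0.397), the microfibril gene Mfap2 at -0.91 ± 0.18 (0.143), and the elastin gene Eln at -0.86 ± 0.21 (0.243). In the same list of 23 genes, the small proteoglycans Bgn (-0.01 ± 0.13) and Dcn (0.07 ± 0.13) and the matricellular gene Postn (-0.02 ± 0.13) were near 0, and Thbs1 was higher at 4 weeks (0.54 ± 0.16, adjusted p = 0.354). The list's median was -0.11, and -0.04 without 2-week replicate 2. Of 22 metalloproteinases and inhibitors, Mmp12 fell, while Mmp10 (1.12 ± 0.31, adjusted p = 0.306) and Mmp14, which activates other metalloproteinases on the cell surface (0.48 ± 0.14, 0.323), stood higher.

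**Figure D4:**
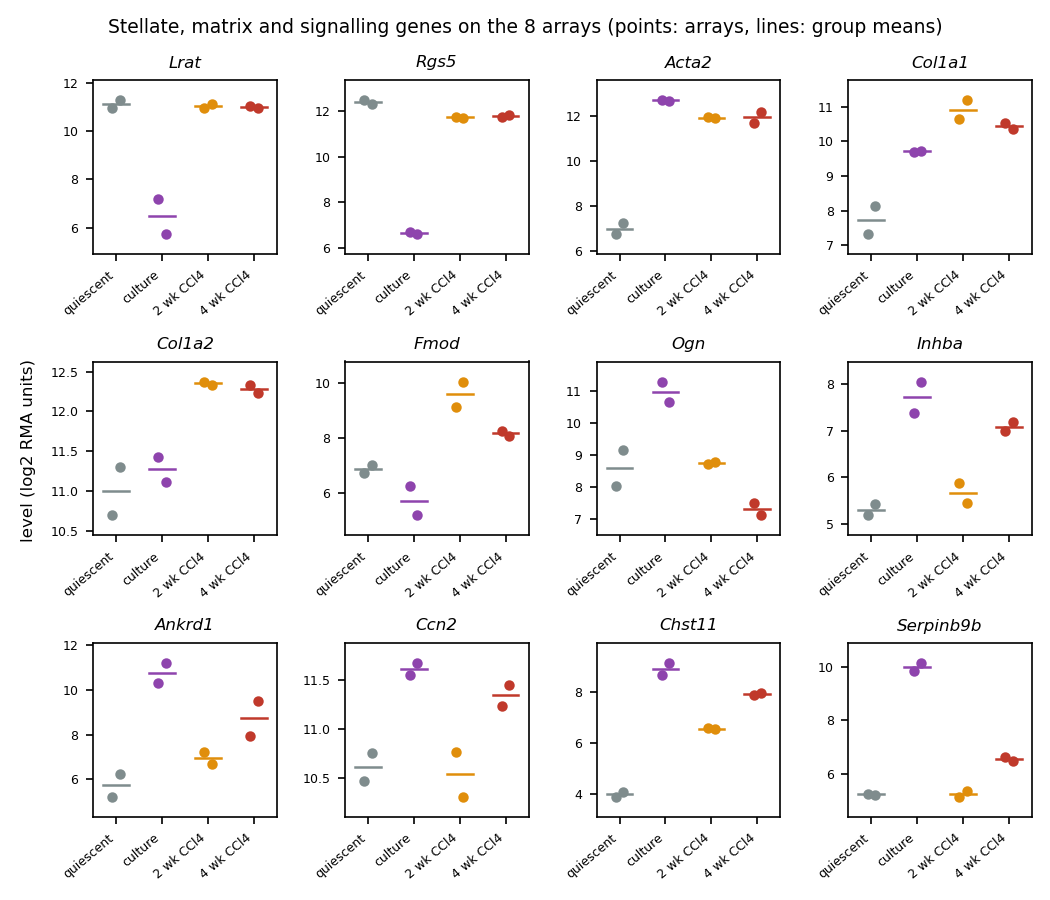
Levels of 12 stellate cell, matrix and signalling genes (y axes, log2 RMA units, a separate scale in each panel) on the 8 arrays, with points for arrays and lines for group means. Lrat, Rgs5 and Acta2 overlap between the CCl4 times, Fmod and Ogn are lower at 4 weeks, and Inhba, Ankrd1, Ccn2, Chst11 and Serpinb9b are higher at 4 weeks and higher still in culture.

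YAP and its paralogue TAZ bind TEAD factors in the nucleus and switch on genes of growth and the cytoskeleton when the Hippo kinases are quiet. Between 2 and 4 weeks no gene of either list passed limma's adjusted threshold, and at an unadjusted p under 0.05 there were 7 targets higher and 1 lower, and 4 pathway genes higher and 0 lower. Yap1 stood at -0.01 ± 0.17 (adjusted p = 0.995) and Wwtr1, which encodes TAZ, at 0.08 ± 0.18 (0.95). Of 23 target genes, 12 had arrays higher at 4 weeks (52.2%) and 3 lower (13%), against 18.8% and 20.2% of all genes. Their median of 0.22 stayed between 0.18 and 0.23 with 1 CCl4 array left out. Ankrd1, a target that is widely used as a readout, stood at 7.22 and 6.66 at 2 weeks and at 7.94 and 9.50 at 4 weeks. Both later arrays were above both earlier ones, but they were further from each other than the nearest pair of the groups (1.78 ± 0.53, adjusted p = 0.361). Ccn2, which encodes the matricellular factor CTGF, stood at 10.77 and 10.31 and then at 11.24 and 11.45 (0.81 ± 0.19, adjusted p = 0.206), with 0.40 on its dimmer probe set. Ccn1, its relative, stood at -0.16 ± 0.23, and Igfbp3 at -0.76 ± 0.33 (0.613). Of 23 Hippo pathway genes, 9 had arrays higher (39.1%) and 1 lower (4.35%). The list was led by the cofactor Vgll3 (0.71 ± 0.25, limma's adjusted p = 0.483) and the scaffold gene Amotl1 (0.59 ± 0.14, 0.243), while Tead1 stood at 0.31 ± 0.21 (0.799).

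Actin and contractility genes had arrays higher at 4 weeks in 13 of 26 (50%) and lower in 1 (3.85%), against 18.8% and 20.2% of all genes. Their median of 0.22 ran from 0.16 to 0.32 with 1 CCl4 array left out. None passed limma's adjusted threshold (3 higher and 0 lower at an unadjusted p under 0.05). The members with the smallest p were Srf, the transcription factor of actin genes (0.77 ± 0.23, adjusted p = 0.355), the non-muscle myosin gene Myh9 (0.75 ± 0.20, 0.277) and Lmod1, which nucleates actin in smooth muscle (0.63 ± 0.21, 0.427). Acta2 (0.01 ± 0.20) and Tagln (0.03 ± 0.54), the genes by which myofibroblasts are usually recognised, were near 0. The fibronectin receptor subunit Itga5 stood at 0.86 ± 0.25 (limma's adjusted p = 0.36). In its list of 20 integrin and adhesion genes, 10 had arrays higher (50%) and 5 lower (25%).

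In TGF-beta family signalling, Inhba was the gene furthest above 0 and Smad6 the gene furthest below, neither past limma's adjusted threshold, as for the whole list (3 higher and 3 lower at an unadjusted p under 0.05). Activins and TGF-beta act through SMAD2 and SMAD3, and BMPs through other SMAD proteins whose targets include the Id genes and Smad6. Inhba, which encodes the subunit of activin A, stood at 5.88 and 5.45 at 2 weeks and at 6.99 and 7.20 at 4 weeks (1.43 ± 0.24, adjusted p = 0.103). The quiescent arrays were at 5.19 and 5.42 and the culture arrays at 7.39 and 8.06, so that the 2-week arrays lay near the former and the 4-week arrays nearer the latter. Tgfb3 stood at 0.61 ± 0.26 (0.591), Tgfb1 at 0.25 ± 0.18 (0.821) and Smad3 at 0.53 ± 0.15 (0.315). The inhibitory Smad6 stood at -1.11 ± 0.16 (adjusted p = 0.062), Id2 at -0.74 ± 0.18 (0.241) and the pseudoreceptor gene Bambi at -0.66 ± 0.17 (0.266). The BMP targets Id1 and Id3 differed by -0.17 ± 0.20 and -0.21 ± 0.18 (0.905 and 0.865), and the inhibitory Smad7 by 0.35 ± 0.17 (0.686). Of the 25 genes, 10 had arrays higher at 4 weeks (40%) and 5 lower (20%), against 18.8% and 20.2% of all genes. Outside the list, and chosen after their values were seen, Bmp10 (1.05 ± 0.19, adjusted p = 0.113) and Bmper, which encodes a BMP-binding protein (1.15 ± 0.36, 0.401), stood higher.

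The genes called higher at 4 weeks were mixed in kind, and 3 of the 6 encode small RNAs. Chst11, which adds sulfate to chondroitin chains of matrix proteoglycans, stood at 6.59 and 6.52 at 2 weeks and at 7.87 and 7.95 at 4 weeks, a rise of 2.56-fold (1.35 ± 0.18, adjusted p = 0.0429). It was 3.89 and 4.08 in quiescent cells and 8.64 and 9.11 in culture, so that both CCl4 times lay between these groups. Serpinb9b, a serine protease inhibitor of the granzyme inhibitor family, stood at 5.15 and 5.39 and then at 6.65 and 6.47 (1.29 ± 0.16, adjusted p = 0.0344). Its quiescent arrays, at 5.27 and 5.24, were close to those of 2 weeks, and its culture arrays reached 9.82 and 10.14. A dimmer probe set of Serpinb9b differed by 0.08, the call was lost with the mean of both probe sets (0.69, limma's adjusted p = 0.194, against 0.0290 to 0.372 over all alternatives), and the gene has near-identical neighbours in its family. Rabggtb, a subunit of the enzyme that attaches lipid tails to Rab proteins, went from 4.20 and 3.97 to 5.17 and 5.12 (1.06 ± 0.14, limma's adjusted p = 0.0429), with both 2-week values within the background range. So were its quiescent arrays, at 3.13 and 3.10, and its culture arrays, at 3.22 and 3.14.

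Rnu3a, a gene of the U3 small nucleolar RNA that guides ribosomal RNA processing, rose from 8.81 and 8.98 to 10.91 and 10.80 (1.96 ± 0.22, adjusted p = 0.0321), the largest of the called rises. Mice carry near-identical U3 genes, which the probes may not separate. The 73 small nucleolar RNA genes, a set chosen after values were seen, had a median of 0.25. Of these genes, 31 had arrays higher at 4 weeks (42.5%, against 18.8% of all genes) and 6 lower (8.22%, against 20.2%). None of them passed limma's adjusted threshold (15 higher and 3 lower at an unadjusted p under 0.05). By size, 1 was at least 2-fold higher with arrays apart and 2 lower, of which Snord13, at 9.44 and 9.42 and then at 7.37 and 7.97, had the largest difference of the set (-1.76 ± 0.36, adjusted p = 0.154). The 71 genes of cytosolic ribosomal proteins had a median of -0.01.

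The microRNA genes called higher were Mir302c and Mir1949. Mature sequences are shown for Mir302c and for the microRNA genes that were not called but at least 2-fold higher with arrays apart, Mir23a, Mir5123, Mir27a and Mir17, which were chosen after their values were seen.
miR-302c-3p: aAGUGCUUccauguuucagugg
miR-23a-3p: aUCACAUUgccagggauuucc
miR-5123: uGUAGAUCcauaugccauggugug
miR-27a-3p: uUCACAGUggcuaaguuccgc
miR-17-5p: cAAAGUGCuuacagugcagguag
These are RefSeq sequences on GRCm38.p6, 5′ to 3′, with the seed (bases 2 to 8) in capitals. No pair of them has an identical seed, but parts are shared. AGUGC is in the seeds of miR-302c-3p and miR-17-5p, and UCACA in those of miR-23a-3p and miR-27a-3p. The probe sets read the precursor or its host transcript, so that neither the arm nor the mature product was measured. Mir302c stood at 2.90 and 2.86 at 2 weeks and at 4.38 and 4.17 at 4 weeks (1.39 ± 0.17, adjusted p = 0.0344). All of its values are within the background range of the receptor genes. Its cluster mates Mir302a, Mir302b and Mir302d differed by 0.20, -0.07 and 0.09. Mir1949 rose from 5.09 and 4.85 to 6.26 and 6.25 (1.29 ± 0.16, adjusted p = 0.0344). Mir23a and Mir27a lie in a cluster on chromosome 8, at chr8:84208563-84208583 and chr8:84208727-84208747 for the arms shown. Mir23a stood at 8.15 and 8.75 and then at 9.73 and 9.71 (1.27 ± 0.26, adjusted p = 0.157), and Mir27a at 8.20 and 8.25 and then at 9.54 and 9.26 (1.17 ± 0.22, 0.119). The culture arrays of both were lowest, at 5.41 and 4.79 for Mir23a and 5.93 and 5.22 for Mir27a. Mir17, of a cluster known to promote proliferation, stood at 4.59 and 4.49 and then at 5.43 and 5.72 (1.04 ± 0.20, adjusted p = 0.12). Mir5123 stood at 4.53 and 6.52 and then at 6.56 and 6.91, with 2-week replicate 2 close to the 4-week arrays and 2-week replicate 1 far below (1.21 ± 0.72, adjusted p = 0.757). Over all 483 microRNA genes, 78 had arrays higher (16.1%) and 51 lower (10.6%), with a median of 0.02. Both shares are below those of all genes, 18.8% and 20.2%.

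Several other genes were at least 2-fold higher at 4 weeks without passing the test, and are named after their values were seen. Ntrk3, a neurotrophin receptor, went from 6.88 and 6.50 to 7.80 and 8.23 (1.33 ± 0.23, adjusted p = 0.103). Mrap, an accessory protein of melanocortin receptors, went from 7.52 and 7.17 to 8.87 and 9.11 (1.65 ± 0.38, 0.206). Gprc5b, a G protein-coupled receptor, differed by 1.18 ± 0.20 (0.103), and Pdpn, the mucin-type protein podoplanin of fibroblasts and lymphatic vessels, went from 7.18 and 7.08 to 8.20 and 8.15 (1.04 ± 0.19, 0.115). Gfra2, a receptor for neurturin, went from 9.39 and 9.02 to 10.16 and 10.26 (1.01 ± 0.19, 0.119). Zbtb16, which encodes the transcription factor PLZF, had the largest difference upward, from 6.02 and 5.11 to 7.62 and 7.83, but its quiescent arrays were 9.19 and 6.53, and the SE was wide (2.16 ± 0.70, limma's adjusted p = 0.421). Olfr331, 1 of the receptor genes used as a guide to background, went from 5.87 and 6.65 to 7.92 and 8.48 (1.94 ± 0.48, 0.247). All 4 values lay above the guide's 95th percentile of 4.78.

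Proliferation genes mostly stood lower at 4 weeks. Of 23 measured, Mcm6 fell, and 12 had arrays lower (52.2%) against 1 higher (4.35%), with a median of -0.22. The ribonucleotide reductase gene Rrm2 stood at -0.65 ± 0.14 (adjusted p = 0.191) and Mki67, the gene of the Ki-67 antigen, at -0.42 ± 0.18 (0.594). On its dimmer probe set, Rrm2 differed by 0.10, in the other direction. Among 21 lysosome and phagocytosis genes, Atp6v0d2 and Ctss fell, and 10 had arrays lower (47.6%) against 3 higher (14.3%). At limma's unadjusted p under 0.05 there were 5 lower and 1 higher. The membrane protein gene Lamp1 stood at -0.15 ± 0.14 and Psap, which encodes saposins, at 0.00 ± 0.17, while Axl, a receptor for dying cells and a YAP target, stood at 0.56 ± 0.14 (0.241). The list's median was -0.17, which was -0.05 without 2-week replicate 2. Unfolded protein response genes had arrays higher in 10 of 20 (50%) and lower in 1 (5%), with a median of 0.13. The chaperone gene Hyou1 stood at 0.71 ± 0.15 (0.179) and Herpud1 at 0.71 ± 0.20 (0.324). Lipid handling genes centred near 0, but the fatty acid transporter gene Cd36, which macrophages and endothelium share, stood at -1.56 ± 0.31 (0.144). Retinoid genes also centred near 0, and the members furthest below it were the hepatocyte genes Adh1 (-1.33 ± 0.42, adjusted p = 0.4) and Rbp4 (-1.04 ± 0.21, 0.144). On its dimmer probe set, Adh1 differed by -0.11.

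**Figure D5:**
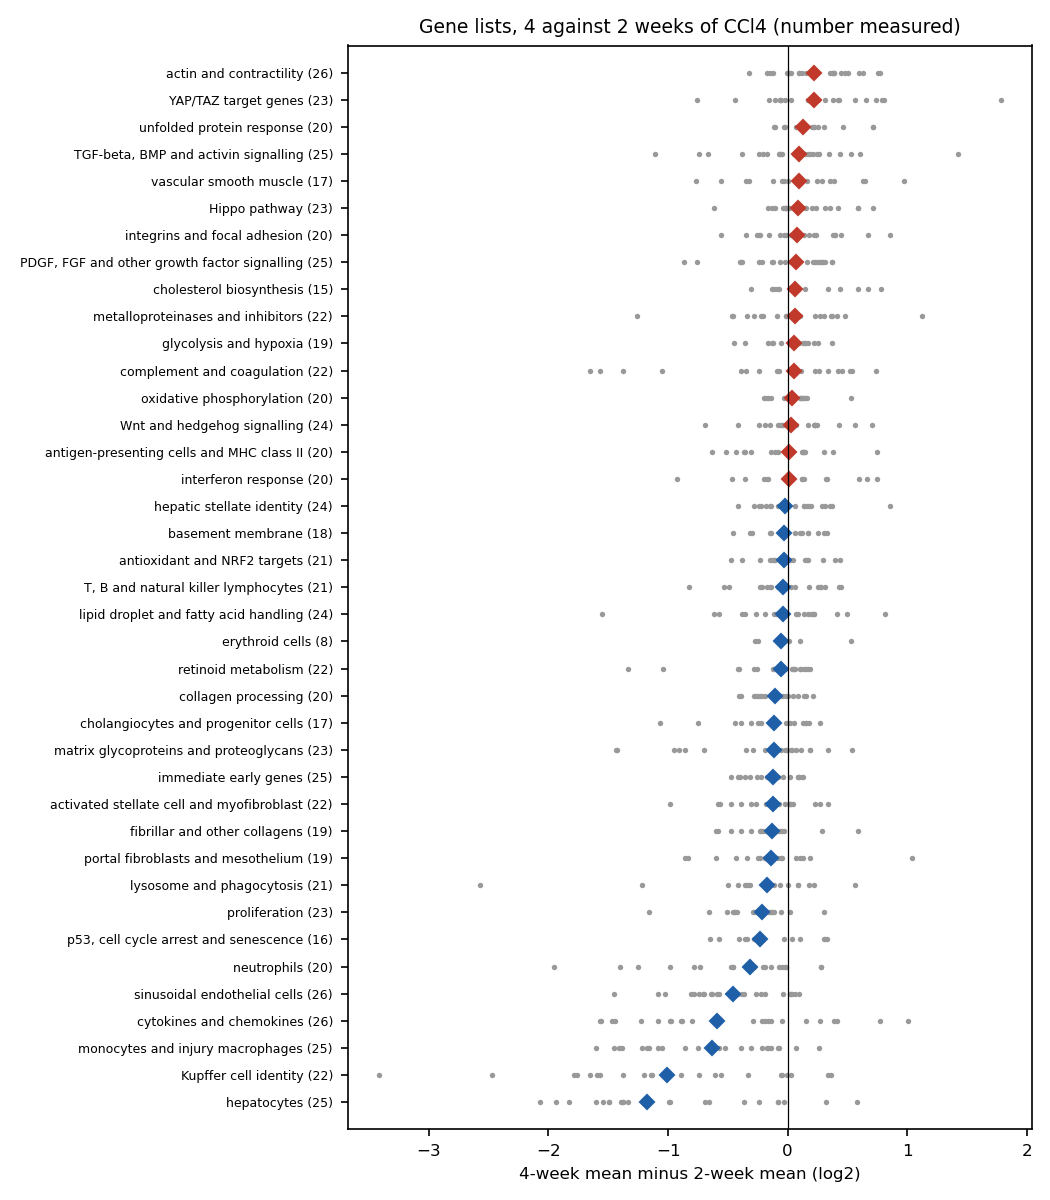
Differences of the single genes of 39 lists (grey points) and the median of each list (diamonds, red above 0 and blue below), as 4-week minus 2-week mean on the x axis (log2), with the number of measured genes after each name. Hepatocyte and Kupffer lists lie lowest, with medians of -1.18 and -1.01, and the actin and YAP/TAZ target lists lie highest, both at 0.22.

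The genes that were at least 2-fold apart were also looked up in cells activated on plastic, a comparison that shares no array with that of the CCl4 times but was normalised together with it. Of the 40 genes higher at 4 weeks, 16 (40%) were at least 2-fold higher in culture than in quiescent cells and 10 (25%) at least 2-fold lower, against 5.77% and 6.14% of all genes. Of the 158 genes lower at 4 weeks, 16 (10.1%) were higher in culture and 96 (60.8%) lower. The 16 and 96 genes are 1.25% of the 1280 genes higher in culture and 7.05% of the 1361 genes lower. No test was made of these shares, and they were not compared among genes of like level. All genes include those near background, whereas 36 of the 40 and 147 of the 158 had a mean of at least 5. The part of expression level in the contrast with all genes was not tested. Among the called rises, Chst11 and Serpinb9b were higher in culture by 4.89 and 4.73 on the log2 scale, and Mir1949 by 1.83. Among the called falls, Vsig4 (-2.77), C1qb (-1.64) and Csf1r (-1.26) were lower in culture, while Mmp12 (2.54) and Mcm6 (1.91) were higher.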

How the data were processed

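The 8 Affymetrix arrays (2 a group, 4 groups) were used as the log2 values that the authors deposited. RNA was preamplified before labelling, per the labels' protocols. The submitters' processing notes name RMA and the Affymetrix Expression Console without a version. RMA normalises all arrays together, so that a shift of most genes in 1 group would be removed.

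Probe sets with 1 symbol in the platform annotation were kept (23521 of 41345, with 1814 naming several genes and 16010 unnamed), and the brightest over all 8 arrays stood for its gene. One model of all 4 groups was fitted with limma 3.58.1 in R 4.3.3 (4 residual degrees of freedom, prior 4.75), with Benjamini-Hochberg adjustment over 22180 genes and an adjusted p under 0.05 as the call. With 2 arrays a group, the smallest p that exact permutation allows is 0.333. Arrays are called apart where both of a group lie above both of the other. With 2 arrays a group this is frequent by chance, so it is a description and not a test. The number of arrays limits the precision.

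The 39 gene lists, the genes named and the sequences shown were chosen with earlier results of these data known. By rule, the text names the called genes, up to 4 members of a list with the smallest p, and a set of stellate, YAP and marker genes. Other genes were chosen after their values were seen. Alternatives were a replicate block, the 4 CCl4 arrays alone, a trended or robust prior, a filter at a mean of 5, the mean of probe sets, centring, quantile normalisation, a fold of 1.5, and each array left out. List medians were recomputed after the data were seen. A shared protocol text names valproic acid after seeding; no label assigns it to a sample, and the CCl4 groups were not seeded.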

Additional observations from a re-analysis of the deposited data

Results flagged for a closer look

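The probe sets that name no gene or several genes were not part of the comparison and carried differences between the CCl4 times. Of these 17824 probe sets, 298 were at least 2-fold higher at 4 weeks with arrays apart, and 156 were at least 2-fold lower. Among the 22180 named genes, 40 were higher (0.18%) and 158 lower (0.712%). By count the falls were thus similar in both sets, which differ in size, and the rises were not. More falls than rises therefore held for the named genes and not for the other probe sets. What the unnamed probe sets measure, and why they differ, was not tested.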

How the results depend on the processing

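The counts of calls depended on which arrays shaped the estimate of the spread. With the 4 CCl4 arrays alone, 14 genes were higher and 68 lower, with all 19 calls among these 82. With the replicate number as a block, limma called 2 higher and 7 lower genes (853 and 960 at an unadjusted p under 0.05), 7 of these 9 among the 19. No label pairs the samples by number or names a shared batch. The deviations of same-numbered CCl4 arrays correlated at 0.02 over all genes, and whether the numbers pair the samples was not tested. With 1 array left out, called genes ran from 0 to 15 higher and from 0 to 70 lower, where the lone array was assumed to vary like the other groups. Leaving out either quiescent array gives the same fit, as does either culture array, because a lone array adds nothing to the spread. Genes at least 2-fold apart ran from 48 to 69 higher and from 131 to 260 lower with 1 CCl4 array left out, and at a fold of 1.5 there were 293 and 512. A trended or robust prior, a filter at a mean of 5, the mean of probe sets, centring and quantile normalisation gave 4 to 6 higher and 13 to 18 lower. The median of all genes was -0.01 as deposited, -0.02 after centring and 0.01 after quantile normalisation.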

Other observations

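The gene sets below were chosen after their values were seen, and none of their genes passed limma's adjusted threshold. Of 16 imprinted genes measured, 10 had arrays lower at 4 weeks and 1 higher, with a median of -0.32, beside 20.2% lower, 18.8% higher and a median of -0.01 over all genes. The 3 furthest below 0 are described first. Nnat, a membrane proteolipid, stood at 8.42 and 7.92 at 2 weeks and at 6.53 and 6.06 at 4 weeks (-1.88 ± 0.28, adjusted p = 0.0703), against 5.75 on both quiescent arrays. Mest, a hydrolase-like protein, went from 7.34 and 7.61 to 5.89 and 6.26 (-1.40 ± 0.20, 0.0595), and the zinc finger gene Plagl1 from 8.81 and 8.73 to 7.75 and 7.30 (-1.25 ± 0.20, 0.0913). In all 3 the 2-week arrays were the highest of the groups but for culture replicate 2 of Nnat, at 8.36. The fetal growth genes Igf2 (0.10 ± 0.17), Dlk1 (0.20 ± 0.18), Cdkn1c (-0.34 ± 0.42) and Igf2r (-0.17 ± 0.21) overlapped between the times.

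Of 17 clock genes, 6 had arrays higher at 4 weeks (35.3%), 8 lower (47.1%) and 3 overlapping, with a median of -0.08. Over all genes, 18.8% had arrays higher and 20.2% lower. The gene furthest from 0 was Nr1d1, which encodes the repressor REV-ERB alpha and stood at 8.27 and 9.36 and then at 7.20 and 6.64 (-1.89 ± 0.32, adjusted p = 0.103). Nr1d2 stood at -0.88 ± 0.23 (0.259) and Arntl, which they repress, at 0.36 ± 0.15 (0.573). Clock stood at 0.22 ± 0.16 (0.813), Npas2 at 0.11 ± 0.17 (0.93) and Bhlhe40 at 0.02 ± 0.15 (0.992). The hour of isolation was not given in the sources used here, and its part was not tested.

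Further myeloid genes outside the lists were at least 2-fold lower at 4 weeks. Ly86 stood at -1.30 ± 0.18 (adjusted p = 0.0522), Igsf6 at -1.31 ± 0.18 (0.0573), Wfdc17 at -1.61 ± 0.23 (0.0595) and Cybb, the oxidase subunit of phagocytes, at -1.14 ± 0.18 (0.0848).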
